A study of Mus musculus with 188 samples.

Results

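Mouse brain slice cultures that had spent 24 h in 200 µM hemoglobin bound to haptoglobin (HbHp) were compared with control cultures that received 0 µM. The comparison takes every library labelled as HbHp in batches 2 and 3 (of 3 labelled batches, numbered here in the order of the labels) at that dose and time, which are 8 libraries, and the 24 h controls of those batches whose labels agree, which are 10, so 18 of the 188 libraries in all. The slices were coronal, 150 µm thick, and came from wild-type C57BL/6J mice of both sexes, aged 6 to 8 weeks. They were kept at an air-liquid interface, in serum-free medium from day 4, and treated on day 7. The hemoglobin was human and cell-free, and the haptoglobin was human plasma protein of the 1-1 type, mixed at 1.1 molar parts to 1, so the cultures received protein and no red cells, and neither human protein adds mouse mRNA. All cells of a slice contributed to each bulk mRNA library, and for a gene of a given cell type fewer cells and less RNA per cell cannot be told apart. The labels do not say which libraries came from the same animal, so the p-values measure the spread between these libraries.

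The groups were not laid out evenly. All 8 HbHp libraries belong to batch 3 and to the second of 2 culture rounds, a round being read here from the first part of the library name, which the labels do not explain. Of the controls, 6 belong to batch 2 and the first round, 2 (replicates 7 and 8) to batch 2 and the second round, 1 (replicate 10) to batch 3 and the first round, and only 1 (replicate 11) shares both batch and round with the HbHp libraries. Culture round was the larger source of difference, with 9984 of 16221 genes past the test between rounds, and batch and round therefore stood as terms in every fold change against control. Values are CPM, counts scaled to the TMM-corrected size of the library, and differences are log2 fold changes with their standard error (SE) from edgeR's quasi-likelihood fit of 55 libraries, which adds the 48 h libraries and those of free hemoglobin (Hb) to estimate the terms and the spread. Another second-round library of batch 2, titled as a 24 h control but with 48 in its library name, was not used. Total counts ran from 27567373 to 51447782 in the controls and from 24695240 to 32211321 in the HbHp libraries.

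Heme that enters a cell is broken down by heme oxygenase-1 into iron, carbon monoxide and biliverdin, and the iron is stored in ferritin or exported by ferroportin. Heme and electrophiles also release the transcription factor NRF2 from its inhibitor KEAP1, and NRF2 with a small MAF partner binds antioxidant response elements in front of genes for glutathione synthesis, thioredoxin recycling, NADPH production and detoxification. Haptoglobin binds hemoglobin dimers tightly and, in the body, directs them to the macrophage receptor CD163.

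A core of the antioxidant response element, written TGACNNNGC and read on both strands, was looked for in the 250 bases before the annotated starts of genes (RefSeq, GRCm38.p6). Among the 28 raised genes of the heme, iron and NRF2 lists described below, 23 had a promoter in that table and 6 held the letters, or 26.1%, against 13.8% of the tested genes with a promoter and 11.5% of all 27025 genes listed. Over all tested members of these lists, raised or not, 21 of 119 held them (17.6%), over all raised genes 19 of 137 (13.9%) and over the raised genes outside the lists 11.4%. A match is a description of the sequence only. The 6 windows are shown, 5′ to 3′ on the strand of the gene with the matching letters in capitals, because they are the stretches that the motif search found in front of genes raised here.
G6pdx, X:74428919-74428947: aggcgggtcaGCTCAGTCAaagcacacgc
Gclm, 3:122245413-122245441: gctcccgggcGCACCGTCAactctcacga
Gsta3, 1:21240454-21240482: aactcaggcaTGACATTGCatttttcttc
Mgst1, 6:138140461-138140489: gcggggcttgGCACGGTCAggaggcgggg
Prdx1, 4:116685456-116685484: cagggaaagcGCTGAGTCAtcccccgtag
Txnrd1, 10:82859104-82859132: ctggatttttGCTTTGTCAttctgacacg
The matches lie between 56 and 134 bases before the RefSeq start of their gene. The GENCODE M21 annotation starts G6pdx, Mgst1 and Txnrd1 further upstream, so that their windows lie within the gene there. The gene lies on the minus strand for G6pdx and on the plus strand for the other 5. The match in the Prdx1 window also holds TGACTCA on the reverse strand, the letters of an AP-1 site, so these motifs overlap there.

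Across all genes, 199 of 16221 passed an adjusted p of 0.05, which is 1.23%, and 169 of them were raised (1.04% of genes tested) and 30 lowered (0.185%). The changes were small. Only 28 of the raised and 8 of the lowered genes differed by 1.5-fold or more, and the median change over all genes was −0.0042. The 3 genes with the smallest p were Gclm, Ikbkg and Gsr. Ikbkg, and Esd, Cbr3 and Entpd5 below, were singled out after their values had been seen. In the 8 lists that cover heme breakdown, iron, glutathione, thioredoxin, NADPH and NRF2 targets and regulators, 145 genes were tested, 28 were raised and none was lowered. Their median change was 0.066 over the 145 members and 0.59 over the 28 raised. Leaving aside genes that averaged under 1 CPM, those raised most were Akr1c14, Slc7a11, Fosb, Ifitm7, Nqo1, Syt15, Gsta3, Gclm, Osgin1 and Aox1, by 1.45 to 1.03 on the log2 scale. Control replicate 11 carried much of the count, since 45 genes passed without it, 44 of them among the 199. The count was 119 without control replicate 10, 305 without control replicate 7 and 130 without HbHp replicate 6. With batch and round left out of the model 986 genes passed, 365 raised and 621 lowered, of which 54 were shared with the 199.

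**Figure D1:**
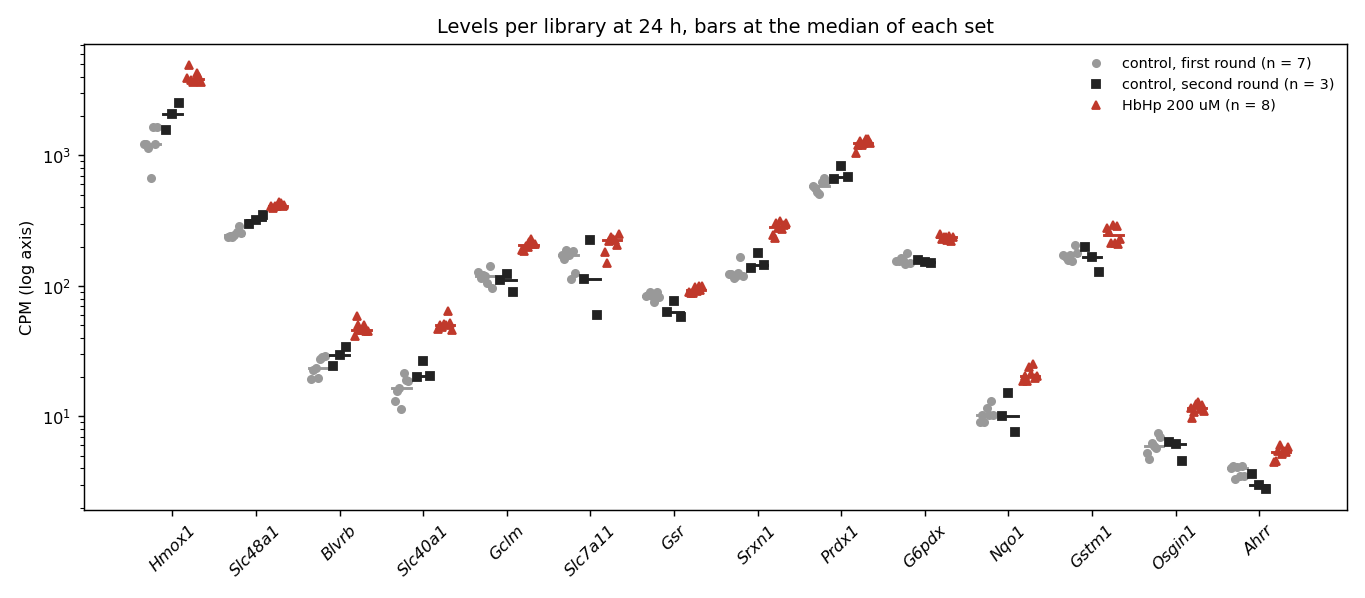
Levels of 14 genes in each library at 24 h, in CPM on a log axis, for the 7 controls of the first round (grey circles), the 3 controls of the second round (black squares) and the 8 HbHp libraries (red triangles), with bars at the median of each set. The HbHp libraries sit above every control for Hmox1, Slc48a1, Blvrb, Slc40a1, Gclm, Srxn1, Prdx1, G6pdx, Nqo1, Gstm1, Osgin1 and Ahrr, and overlap the controls for Slc7a11 and for the first-round controls of Gsr.

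Of the genes of heme handling, Slc48a1, Blvrb and Fech were raised and Hmox1 did not pass the test. Hmox1, which encodes heme oxygenase-1, ran from 3668 to 4917 CPM in the 8 HbHp libraries (median 3830), from 670.3 to 1666 in the 7 first-round controls and stood at 1570, 2070 and 2513 in the second-round controls. Every HbHp library was therefore above every control. The fitted change was 0.75 ± 0.22 and did not pass the test (adjusted p = 0.081, edgeR). Between the rounds the fitted difference of Hmox1 was 0.89 ± 0.13, higher in the second. It passed within the second round alone (0.84, adjusted p = 0.013), and over all 34 alternatives the adjusted p ran from 1.6e-04 to 0.96. Slc48a1, the transporter HRG1 that moves heme out of the endolysosome, ran from 396.1 to 440.0 CPM with HbHp (median 409.7), from 235.4 to 289.2 in the first-round controls and at 298.8, 321.8 and 347.0 in the second-round controls. These groups did not overlap, and the change was 0.32 ± 0.08 (adjusted p = 0.027). Blvrb, a biliverdin reductase, ran from 41 to 58.8 CPM against 19.5 to 33.8 over all 10 controls, a change of 0.61 ± 0.14 (adjusted p = 0.016). The heme breakdown and transport list held 10 tested members, of which these 2 were raised and none was lowered, against 1.04% of all genes raised. Its median change was −0.11 against −0.0042 over all genes. In the heme synthesis list 1 of 9 members was raised, Fech, which inserts iron into protoporphyrin, by 0.26 ± 0.07 (adjusted p = 0.045). The call of Slc48a1 was lost without control replicate 11 (adjusted p = 0.092) or control replicate 10, that of Blvrb without control replicate 11 (adjusted p = 0.050), and that of Fech when any 1 of 11 libraries was left out (highest adjusted p = 0.19).

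Among the genes of iron handling, the exporter stood out. Slc40a1, which encodes ferroportin, the only known iron exporter of mammalian cells, ran from 46.1 to 64 CPM with HbHp (median 50.2), from 11.4 to 21.6 in the first-round controls and at 19.9, 26.6 and 20.4 in the second-round controls. The groups were far apart, with a change of 1.02 ± 0.20 (adjusted p = 0.0026), and the call held when any library was left out. Ferritin heavy chain, Fth1, ran from 6491 to 7223 CPM with HbHp and from 3616 to 6679 in the controls, so that the groups overlapped through control replicate 8. Its change of 0.27 ± 0.12 missed the test (adjusted p = 0.29). Ireb2, an iron-sensing regulator of mRNA stability, passed with 0.26 ± 0.06 (adjusted p = 0.0088), yet its levels of 80.4 to 97.7 CPM lay within the control range of 65.6 to 104.3. Without control replicate 11, which held the lowest value, its adjusted p was 0.16. Of 19 tested members of the iron list, Slc40a1 and Ireb2 were raised, none was lowered and the median change was 0.00021. Over all genes 1.04% were raised.

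The listed receptors and scavengers of hemoglobin and heme did not pass the test. Cd163, the haptoglobin-hemoglobin receptor, ran from 1.65 to 4.14 CPM with HbHp (median 3.05) and from 1.27 to 5.20 in the controls, with a change of 0.07 ± 0.36 (adjusted p = 0.96). Lrp1, the hemopexin receptor, ran from 1225 to 1389 CPM against 1095 to 1813 (change −0.26 ± 0.16, adjusted p = 0.48). Mouse haptoglobin mRNA, Hp, ran from 16.4 to 23.4 CPM with HbHp, from 7.83 to 18.4 in the first-round controls and at 28.8, 61.6 and 24.7 in the second-round controls. It was below all 3 of the latter, with a change of −0.78 ± 0.22 (adjusted p = 0.064). It passed without control replicate 3 or control replicate 7. None of the 7 members of this list was called. Over all genes 1.23% were called, so no call among 7 is near that share.

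Of the genes of cystine import and glutathione synthesis, Gclm, Gclc, Gsr, Slc3a2 and Slc7a11 were raised. Gclm, the modifier subunit of glutamate-cysteine ligase, which sets the pace of glutathione synthesis, had the smallest p of all genes. It ran from 186.8 to 228.8 CPM with HbHp (median 205.3), from 96.3 to 141.4 in the first-round controls and at 111.6, 123.0 and 90.6 in the second-round controls. No library overlapped, and the change was 1.13 ± 0.10 (adjusted p = 5.1e-12). Gclc, the catalytic subunit, ran from 90.5 to 116.2 CPM, above the second-round controls at 63.9 to 83.04 but within reach of the first-round controls at 78.2 to 101.7, and rose by 0.62 ± 0.10 (adjusted p = 1.7e-04). Gsr, glutathione reductase, showed the same arrangement, with 87.7 to 100.7 CPM against 57.9, 62.7 and 77.03 in the second round and a median of 84.4 in the first, and rose by 0.56 ± 0.07 (adjusted p = 1.7e-07). Slc3a2, the heavy chain of the cystine-glutamate exchanger, ran from 265.8 to 300.6 CPM, above every control (211.7 to 239.8), with a change of 0.33 ± 0.05 (adjusted p = 2.3e-04). Its light chain xCT, Slc7a11, changed more and less evenly. It ran from 149.9 to 249.3 CPM with HbHp (median 223.9), from 112.7 to 187.3 in the first-round controls and at 113.0, 225.6 and 59.9 in the second-round controls, so the groups overlapped, and the change was 1.42 ± 0.26 (adjusted p = 8.6e-04). These 5 were raised out of 20 tested members, against 1.04% of all genes, and none was lowered, with a median of 0.20. Each of the 5 calls held when any library was left out. In the second round alone and with 24 h libraries only, Gclm and Gsr passed as well. Slc7a11 passed in neither setting (adjusted p = 0.41 and 0.14, edgeR). Slc3a2 did not pass in the second round alone (adjusted p = 0.27), nor Gclc with 24 h libraries only (adjusted p = 0.13). Over all 34 alternatives the change of Slc7a11 ran from 0.49 to 1.91. In GRCm38 Gclm lies on chromosome 3, 122245557 to 122270732, plus strand, where the GENCODE M21 annotation also places Gm17494 and Gm6061, and reads of overlapping genes cannot be told apart here.

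Glutathione S-transferases, which attach glutathione to electrophiles, were raised in 4 of 20 tested members, against 1.04% of all genes. Gstm1 ran from 209.3 to 290.7 CPM with HbHp (median 244.0) and from 128.6 to 205.1 in the 10 controls, and rose by 0.76 ± 0.14 (adjusted p = 8.6e-04). The groups did not overlap. Gsta4 rose by 0.74 ± 0.13 (adjusted p = 4.3e-04), from 20.8, 29.03 and 33.3 CPM in the second-round controls to between 36.2 and 45.7, a range that its first-round controls, at 30.8 to 36.4, just reached. Gsta3 and Mgst1 rose by 1.14 ± 0.27 and 0.51 ± 0.11 (adjusted p = 0.016 and 0.0092), Gsta3 at a level of only 2.49 to 4.56 CPM, and neither call held without control replicate 11 (adjusted p = 0.065 and 0.13). The sequences of Gsta genes are similar, and reads may have been shared among them.

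The named enzymes of the thioredoxin system, Txnrd1, Srxn1 and Prdx1, rose. Txnrd1, cytosolic thioredoxin reductase, ran from 349.6 to 393.6 CPM with HbHp (median 380.0), from 282.8 to 343.7 in the first-round controls and from 242.1 to 263.0 in the second-round controls, with a change of 0.56 ± 0.08 (adjusted p = 9.6e-06). Srxn1, sulfiredoxin, which repairs oxidized peroxiredoxins, ran from 234.6 to 313.6 CPM against 115.5 to 179.8 over the controls and rose by 0.92 ± 0.16 (adjusted p = 5.6e-04). Prdx1, a peroxiredoxin, ran from 1048 to 1346 CPM against 505.9 to 824.1 and rose by 0.68 ± 0.14 (adjusted p = 0.0034). In all 3 every HbHp library was above every control. Prdx1 did not pass in the second round alone (adjusted p = 0.18, edgeR), nor Srxn1 with 24 h libraries only (adjusted p = 0.12). These 3 of 20 tested members were the ones raised, against 1.04% of all genes, with none lowered.

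G6pdx and Pgd, which make NADPH in the pentose phosphate pathway, stood clear of the controls as well. G6pdx ran from 219.2 to 248.8 CPM with HbHp (median 237.9) and from 148.3 to 178.5 over the 10 controls, with a change of 0.64 ± 0.09 (adjusted p = 7.8e-06). Pgd ran from 178.2 to 203.1 CPM against 102.9 to 145.5 and rose by 0.41 ± 0.07 (adjusted p = 4.1e-04). Me1, malic enzyme, rose by 0.56 ± 0.08 (adjusted p = 1.7e-05), with 172.6 to 214.4 CPM against 157.6, 133.0 and 135.1 in the second-round controls, but its first-round controls reached 215.7. Tkt, transketolase, passed narrowly (0.29 ± 0.08, adjusted p = 0.045) and lost its call when any 1 of 14 libraries was left out (highest adjusted p = 0.13). These 4 of 16 tested members were raised, against 1.04% of all genes, and none was lowered. G6pdx lies on chromosome X, 74409483 to 74429194, minus strand (GRCm38), and overlaps Ikbkg on the other strand, itself raised by 0.44 (adjusted p = 5.7e-09), so reads of this pair may not have been told apart.

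The enzymes used most often as a readout of NRF2 followed. Nqo1, a quinone reductase, ran from 18.5 to 25.4 CPM with HbHp (median 20.4), from 9.02 to 13.2 in the first-round controls and at 10.1, 15.1 and 7.54 in the second-round controls. The groups did not overlap, and the change was 1.24 ± 0.17 (adjusted p = 7.8e-06). In the second round alone Nqo1 did not pass (adjusted p = 0.089, edgeR). Osgin1, an oxidative stress-induced growth inhibitor, ran from 9.71 to 12.8 CPM against 4.53 to 7.45 over the controls and rose by 1.08 ± 0.16 (adjusted p = 1.9e-05). With 24 h libraries only it did not pass (adjusted p = 0.092, edgeR). Aox1, aldehyde oxidase, and Ephx1, epoxide hydrolase, rose by 1.03 ± 0.16 and 0.45 ± 0.08 (adjusted p = 1.2e-04 and 0.0011). For Aox1 the HbHp range of 21.6 to 33.1 CPM was above the second-round controls (12.5 to 19.3) but coincided with the first-round controls (21.9 to 31.7). Esd, Cbr3 and Entpd5 completed the 7 raised members of the detoxification list, of 25 tested, by 0.53, 0.51 and 0.22. Over all genes 1.04% were raised. Of the 15 pathway regulators, only Sqstm1, the autophagy receptor p62 that binds KEAP1, was raised (0.42 ± 0.09, adjusted p = 0.011, and 0.065 without control replicate 11), with 729.5 to 822.2 CPM against 348.6 to 694.8. Mafg, a small MAF partner of NRF2, ran from 116.9 to 142.0 CPM, above all controls at 92.3 to 115.3, without passing the test (0.23 ± 0.08, adjusted p = 0.14).

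**Figure D2:**
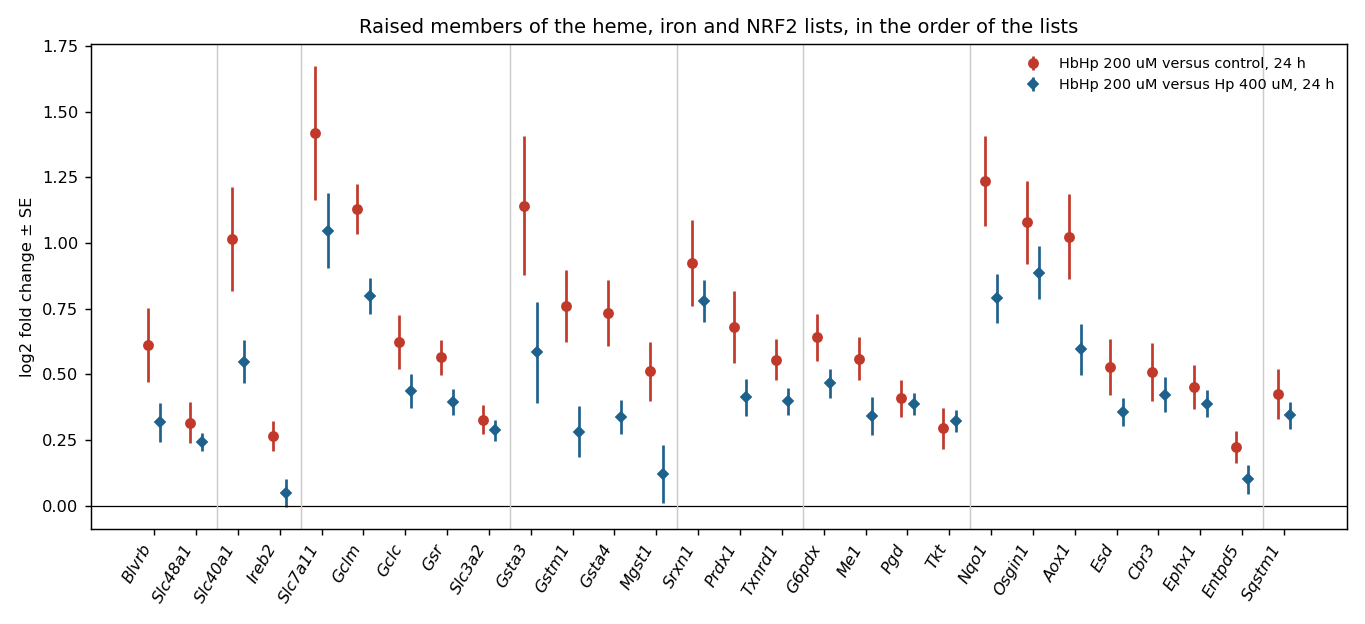
Fitted log2 fold changes with SE bars for the 28 raised members of the heme, iron and NRF2 lists, grouped by list, against the 10 controls (red circles) and against the 6 Hp libraries at 400 µM (blue diamonds). The largest values against control are those of Slc7a11 at 1.42, Nqo1 at 1.24, Gsta3 at 1.14 and Gclm at 1.13, and against Hp those of Slc7a11 at 1.05, Osgin1 at 0.89 and Gclm at 0.80.

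Targets of the aryl hydrocarbon receptor, a sensor of planar aromatic ligands, were raised in 4 of 7 tested members, against 1.04% of all genes. The median of this list was 0.68 against −0.0042 over all genes. Nqo1, already described, belongs to this list too. Cyp1b1, a cytochrome P450, ran from 427.1 to 641.0 CPM with HbHp (median 491.4) and from 202.3 to 450.9 in the controls, overlapping through control replicate 8, and rose by 1.01 ± 0.18 (adjusted p = 9.4e-04). Ahrr, the repressor of the receptor, ran from 4.48 to 6.08 CPM against 2.79 to 4.21, without overlap, and rose by 0.68 ± 0.15 (adjusted p = 0.0093, and 0.10 without control replicate 11). Tiparp rose by 0.39 ± 0.08 (adjusted p = 0.0022), with groups that overlapped.

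The remaining genes raised most had low counts or uneven libraries. Akr1c14, an aldo-keto reductase, ran from 3.37 to 7.32 CPM with HbHp and from 0.63 to 4.78 in the controls (1.45 ± 0.36, adjusted p = 0.024). Fosb, an AP-1 subunit, ranged widely within the HbHp group, from 1.65 to 9.92 CPM, against 1.45 to 2.76 (1.31 ± 0.32, adjusted p = 0.025). Ifitm7 rose by 1.28 ± 0.29 (adjusted p = 0.011), with 1.35 to 2.85 CPM against 0.59 to 2.77. Syt15, a synaptotagmin, ran from 2.47 to 5.35 CPM, above the second-round controls at 1.561, 1.596 and 1.779, while the first-round controls stood at 3.11 to 6.00 (1.19 ± 0.24, adjusted p = 0.0036). Without control replicate 11 the adjusted p was 0.19 for Akr1c14, 0.16 for Fosb and 0.058 for Ifitm7, and the call of Fosb was also lost without control replicate 10, HbHp replicate 5 or HbHp replicate 8. Fosb was the only 1 of 18 early response genes called, where 1.23% of all genes were.

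Of the 10 genes lowered most, 9 overlapped the controls and 1 did not. That gene was Hif3a, a hypoxia-inducible factor subunit that restrains the response to low oxygen. It ran from 4.04 to 7.22 CPM with HbHp (median 5.40), from 10.4 to 15.8 in the first-round controls and at 9.42, 10.1 and 13.9 in the second-round controls. No library overlapped, and the change was −0.95 ± 0.19 (adjusted p = 0.0032). Plin4, a lipid droplet protein, ran from 12.04 to 21.3 CPM, below the second-round controls at 24.2, 30.2 and 36.6 and within the first-round range of 9.89 to 24.6 (−0.96 ± 0.20, adjusted p = 0.0064). Dlk2 (−0.81), Prr18 (−0.48) and Sez6l2 (−0.48) were likewise below all 3 second-round controls and among the first-round ones. Exoc3l (−0.92), Rab37 (−0.50) and Ada (−0.48), adenosine deaminase, overlapped both sets. Without control replicate 11 the adjusted p was 0.070 for Hif3a, 0.098 for Plin4, 0.069 for Dlk2 and 0.16 for Prr18. The calls of Exoc3l, Rab37, Ada and Sez6l2 were lost when any 1 of 10, 12, 8 and 9 libraries respectively was left out, with highest adjusted p of 0.16, 0.26, 0.14 and 0.20.

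**Figure D3:**
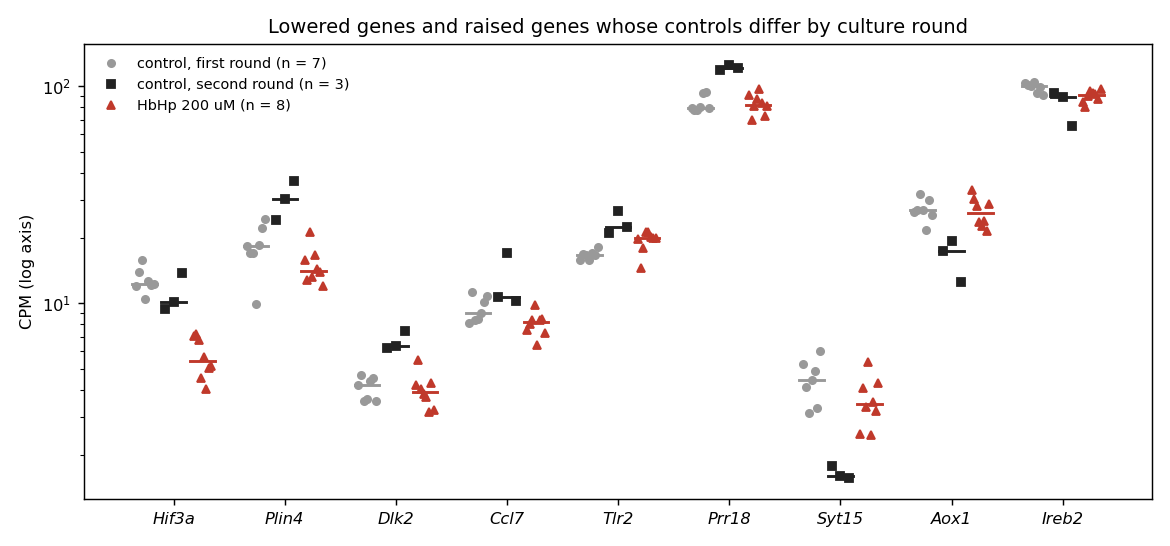
Levels of 6 lowered and 3 raised genes in each library, in CPM on a log axis, with symbols as for the first-round controls (grey circles, n = 7), second-round controls (black squares, n = 3) and HbHp libraries (red triangles, n = 8), and bars at the median of each set. Hif3a with HbHp, at 4.04 to 7.22 CPM, is below both sets of controls, whereas for Dlk2, Prr18, Syt15 and Aox1 the HbHp libraries differ from the second-round controls and overlap the first-round controls.

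The inflammatory genes that were called went in both directions. In the list of cytokines and chemokines 1 of 31 tested members was raised and 1 lowered. In that of inflammatory activation 1 of 22 was raised and 1 lowered. Over all genes 1.04% were raised and 0.185% lowered. The fitted changes of most members were below 0, with 6 of 31 and 6 of 22 above 0. Their medians were −0.38 and −0.24, against −0.0042 over all genes. Il19, a cytokine of the IL-10 family, ran from 0.48 to 2.08 CPM with HbHp (median 1.74) and from 0.17 to 0.71 in the controls, with 7 of 8 HbHp libraries above every control, a change of 2.29 ± 0.39 (adjusted p = 4.3e-04) at a low level. Ccl7, a monocyte chemokine, ran from 6.44 to 9.81 CPM, below the second-round controls at 10.65, 17.03 and 10.22 and overlapping the first-round controls at 8.08 to 11.3 (−0.62 ± 0.14, adjusted p = 0.0092). Tlr2, a receptor for bacterial lipoproteins, changed by −0.58 ± 0.14 (adjusted p = 0.025), although its mean level was 19.4 CPM with HbHp and 18.7 in the controls, of which those of the second round were higher (21.1 to 26.5) than those of the first (15.8 to 18.1). Clec4n, a C-type lectin of myeloid cells, ran from 11.6 to 20.6 CPM against 6.22 to 12.6 (0.86 ± 0.23, adjusted p = 0.044), and lost its call when any 1 of 10 libraries was left out (highest adjusted p = 0.28, without control replicate 11). Il6 and Il1rn did not pass (−0.88 ± 0.29 and −0.79 ± 0.27, adjusted p = 0.14 for both), and both were highest in control replicate 8. Tnfrsf1a, a TNF receptor, ran from 223.4 to 237.2 CPM, above the second-round controls at 189.6 to 218.9, without passing (0.16 ± 0.05, adjusted p = 0.089). Gpr84, a receptor of activated microglia, ran from 3.09 to 6.71 CPM against 2.09 to 7.40 (−0.28 ± 0.25, adjusted p = 0.66).

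Other stress pathways showed few calls. Over all genes 1.23% were called, so a list of this size with no call is near that share. None of 20 chaperones of the endoplasmic reticulum passed, and Hspa5, the best known of them, changed by −0.20 ± 0.06 (adjusted p = 0.089). None of 24 genes of sterol synthesis and uptake, 16 cytosolic heat shock chaperones, 22 interferon-stimulated genes, 16 complement genes, 19 HIF targets, 23 lysosomal genes, 20 DNA replication genes, 20 mitosis genes, 15 collagens, 18 neuropeptides, 11 EGF family genes or 4 protease-activated receptors was called. Without calls, the fitted changes of some lists were still mostly below 0. Among the collagens 0 of 15 were above 0 (median −0.38) and among the complement genes 2 of 16 (−0.30). The count was 1 of 20 for DNA replication, 1 of 20 for mitosis, 3 of 23 for the lysosome and 3 of 20 for the endoplasmic reticulum. In the other lists without a call the medians lay between −0.15 and 0.093. The ATF4 list had 2 of 28 members raised, Slc7a11 and Slc3a2, which are also counted above, and the ferroptosis list 1 of 19, Slc7a11. Of 13 metallothionein and zinc genes 1 was raised, the zinc exporter gene Slc30a1 (0.29), and of 18 p53 targets 1, Trp53inp1 (0.41).

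Most of the raised genes lay outside the heme, iron and NRF2 lists, and their changes were smaller. These 141 genes had a median change of 0.33, and 127 of them changed by less than 1.5-fold, against 14 of the 28 listed genes. Against Hp at 400 µM, within the same batch and round, the median was 0.10 for the 141 and 0.39 for the 28. Their longest transcripts had a median GC content of 42.1%, against 48.9% for the 28 listed genes, 53.8% for the 30 lowered genes and 49.7% over all genes tested. When GC content and transcript length were corrected for, a setting added after the data had been seen, 147 genes were called, 106 raised and 41 lowered, in place of 169 and 30, and 103 of them were shared with the 199. With this correction Mafg, Tnfrsf1a and Hspa5 passed (adjusted p = 0.0033, 0.0094 and 0.010), and Fech, Ireb2, Prr18, Exoc3l, Rab37 and Ada did not (adjusted p from 0.053 to 0.15). The part of GC content in these calls was otherwise not tested.

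**Figure D4:**
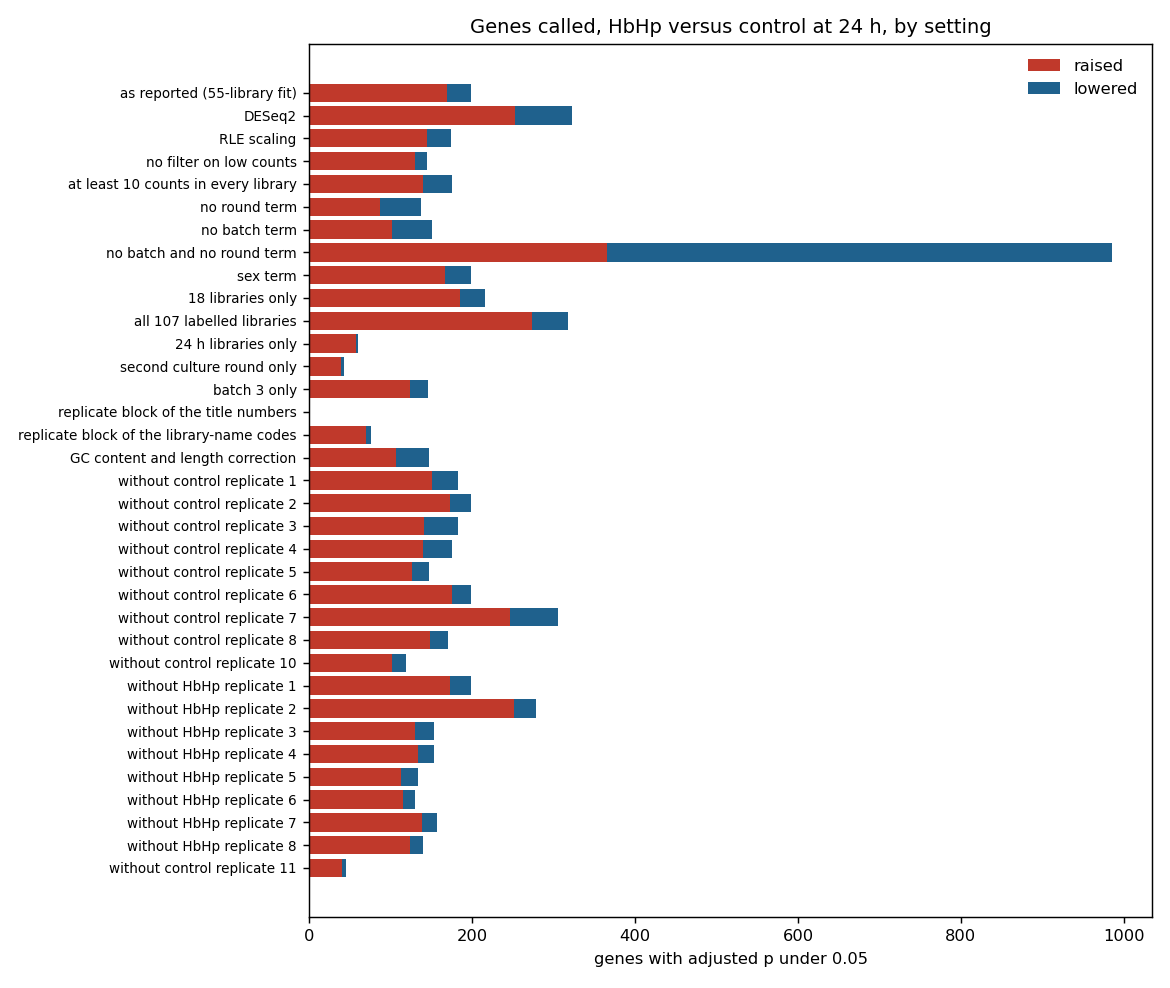
Number of genes with an adjusted p under 0.05 for HbHp against control at 24 h (horizontal axis), raised in red and lowered in blue, as reported and under each other setting (vertical axis). The count is 199 as reported, 986 with neither batch nor round in the model, 0 with the title numbers as a replicate block and 45 without control replicate 11.

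The cell makeup of the slices was read from marker genes. Summed markers of neurons ran from 572.9 to 1045 CPM with HbHp (median 728.5) and up to 925.7 in the controls (median 771.2). Those of astrocytes ran from 11290 to 14340 against 12180 to 13940, and those of oligodendrocytes from 32520 to 42090 against 30240 to 42960. The summed markers of these cell types were thus present in every library. Of the 8 HbHp libraries, 7 were below all 3 second-round controls for oligodendrocytes (40690 to 42960 CPM). For neurons 5 were below them (793.1 to 917.6) and 1 above, and for astrocytes 2 were below (12380 to 13940) and 1 above. Single neuronal genes differed widely in level. Scaled with the Hp libraries, the HbHp medians were 306 CPM for Tubb3 and 170 for Map2. Those of the cortical markers Slc17a7 and Emx1 were only 0.78 and 0.59, and Neurod2 and Neurod6 were below the filter. Hemoglobin genes were at or near 0, the 6 red cell transcripts summing to at most 0.093 CPM with HbHp. Summed microglia markers ran from 1535 to 2395 CPM with HbHp, from 611.2 to 1851 in the first-round controls and at 1325, 1340 and 2495 in the second-round controls, the highest being control replicate 11. Markers of endothelial and mural cells and of fibroblasts and meninges were highest in control replicate 8, at 719.2 and 2190 CPM, against 276.0 to 367.6 and 556.7 to 1015 with HbHp. None of the 16 neuron, 14 astrocyte, 15 oligodendrocyte, 14 microglia, 17 disease-associated microglia, 11 border macrophage, 16 endothelial and mural, 10 fibroblast and meningeal, 10 choroid plexus and ependymal or 5 neutrophil and T cell markers tested was called. Over all genes 1.23% were called, so no call in a list of this size is near that share. The median changes were 0.085 for neurons, 0.079 for astrocytes and −0.21 for oligodendrocytes, the last with 1 of 15 members above 0. They were −0.40 for microglia, −0.33 for border macrophages, −0.49 for endothelial and mural cells, −0.53 for fibroblasts and meninges and −0.83 for choroid plexus and ependyma. For microglia and border macrophages these fitted signs, which include the batch and round terms, were opposite to those of the levels, whose means were 1862 and 456.6 CPM with HbHp and 1398 and 397.5 CPM over the 10 controls. The lowered chemokine Ccl7 and the cytokines Il6 and Il1rn were highest in control replicate 8 as well, and the part of cell makeup in these values was not tested. None of 6 cortex and hippocampus, 8 striatum, 8 thalamus or 8 hypothalamus markers was called, again near the share over all genes.

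Whether binding to haptoglobin altered the response to hemoglobin was asked against the 10 libraries of free Hb at the same dose and time, by 1 test over all genes. Of those 10 libraries 2 belong to the second round, also 2 to batch 3, and none to both. Of 16221 genes 46 were called (0.284%), 31 were higher and 15 lower with HbHp, and 2060 genes had an unadjusted p under 0.05. Gclm was higher with the complex by 0.59 ± 0.10 (adjusted p = 0.0016), and Me1 by 0.36 ± 0.08 (adjusted p = 0.039). Tfrc, the transferrin receptor, which cells withdraw when iron is plentiful, differed by 0.60 ± 0.12 (adjusted p = 0.017). It was lower with free Hb than in controls by 0.57 ± 0.09 (adjusted p = 6.4e-05), whereas HbHp against control gave 0.02 ± 0.12 (adjusted p = 0.96). Against Hp at 400 µM, within the same batch and round, Tfrc was lower in every HbHp library, at 59.2 to 82.1 CPM against 82.7 to 108.4, and did not pass (−0.34 ± 0.08, adjusted p = 0.094). Ireb2 (0.25), Fut9 (0.59), Arxes2 (0.52) and Rimklb (0.43) were also higher, and the chemokines Ccl7 (−0.81) and Ccl2 (−0.71), Dlk2 (−0.82), Tlr2 (−0.71) and Ada (−0.57) were lower. Fut9 in the 8 HbHp libraries, at 18.2 to 23.02 CPM, lay below the median of the free Hb libraries, 30.1 CPM. Its fitted sign, which includes the batch and round terms, was thus opposite to that of the levels. For Ireb2 the batch and round terms were −0.21 and −0.22, and with neither term its change against control was −0.064. All differences from free Hb in this paragraph include these terms.

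For other genes of the response no difference from free Hb passed the test, and the intervals, taken as 1.96 SE, were wide for some. The difference was 0.01 for Hmox1, between −0.44 and 0.47, and 0.02 for Slc40a1, between −0.37 and 0.41. It was 0.03 for Slc48a1 (−0.12 to 0.19), 0.64 for Nqo1 (0.30 to 0.98, adjusted p = 0.083) and 0.81 for Slc7a11 (0.31 to 1.31, adjusted p = 0.14). Free Hb against the shared controls called 28 raised genes (0.173%). Each fold change stands beside that of HbHp as follows. Gclm was 0.54 with Hb and 1.13 with HbHp, Nqo1 0.60 and 1.24, Srxn1 0.63 and 0.92, Slc40a1 0.998 and 1.015, Hmox1 0.73 and 0.75, and Il19 2.43 and 2.29. Both comparisons use the 10 controls, so their values are not independent.

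At 48 h the 8 HbHp libraries gave more calls against their 9 controls, with 600 genes raised (3.7%) and 222 lowered (1.37%). Only 5 genes (0.0308%) differed between the 2 times in their change, all larger at 48 h, and 1612 genes had an unadjusted p under 0.05. Prdx1 changed by 0.68 at 24 h and by 1.51 at 48 h, a difference of 0.83 (adjusted p = 0.0045), and ran from 1595 to 3508 CPM at 48 h against 427.8 to 790.2 in the 48 h controls. Clec4n changed by 0.86 and 2.05, a difference of 1.19 (adjusted p = 0.046), with 27.1 to 51.04 CPM at 48 h against 4.83 to 12.1. The other three were growth factors or cytokines with no called change at 24 h. Il11, an IL-6 family cytokine, changed by −0.69 at 24 h and 1.39 at 48 h (difference 2.09, adjusted p = 0.0014), and the EGF receptor ligands Ereg by 0.09 and 1.98 (1.88, adjusted p = 0.0014) and Areg by −0.21 and 1.63 (1.84, adjusted p = 0.0030). Of the 28 raised list members, 27 passed at 48 h as well, with a median of 0.73 there against 0.59 at 24 h. Of the other 141 raised genes 92 passed at 48 h. Both times were fitted with the same batch and round terms, so their values are not independent. The 48 h libraries have the same layout, in which all HbHp libraries belong to batch 3 and the second round. The 8 HbHp libraries of 48 h carry the same codes in their library names as the 8 of 24 h. The fit held no term for these codes.

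Haptoglobin without hemoglobin had been given at 400 µM, another dose. Of these libraries 6 shared batch 3 and the second round with HbHp, so neither term was needed. Each of the 6 carries a code in its library name that an HbHp library also carries, and the comparison held no term for it. In this comparison 55 of 15218 genes passed (0.361%), 42 higher and 13 lower with HbHp, and 1801 had an unadjusted p under 0.05. The 5 raised most were Il19, Slc7a11, Osgin1, Ahrr and Gclm, by 2.12, 1.05, 0.89, 0.87 and 0.80. Gclm ran from 186.8 to 226.7 CPM with HbHp and from 96.0 to 131.1 with Hp (0.80 ± 0.07, adjusted p = 4.6e-05), and Nqo1 from 18.6 to 25.2 against 9.47 to 14.1 (0.79, adjusted p = 4.1e-04). Slc40a1 ran from 46.01 to 63.4 CPM against 30.1 to 40.9, higher by 0.55 (adjusted p = 0.0031). Hmox1 ran from 3653 to 4918 CPM against 2688 to 3539 and, though the groups did not overlap, did not pass (0.31 ± 0.08, adjusted p = 0.14). Of the 28 raised list members 21 were called here, and of the other 141 raised genes, 140 of which were tested, 12 were. The same 8 HbHp libraries enter both comparisons. Hif3a, apart from its controls above, differed from Hp by −0.09 (adjusted p = 0.89). Among the genes lowered most were Il1rn (−1.11), Pi15 (−1.11), Gm20721 (−0.81) and Ccl7 (−0.68).

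The change with HbHp was also compared between libraries whose names carry F and M, 4 of each with HbHp and 5 of each among the controls. No gene passed the quasi-likelihood test of edgeR for this difference (0%), nor with DESeq2, and 407 genes had an unadjusted p under 0.05. For Nqo1 the change was 1.36 ± 0.20 in the F libraries and 1.16 ± 0.20 in the M libraries, a difference of −0.20 ± 0.25 (adjusted p = 1), and for Gclm it was 1.09 ± 0.11 and 1.20 ± 0.10.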

How the data were processed

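Poly(A) RNA of the slices was sequenced, and the authors deposited raw counts of reads per gene, 1 file per library. The submitters' processing notes name featureCounts and GRCm39, and whether counting used strand is not given in the sources used here. The files hold 25528 gene IDs, of which 99.6% were matched to a symbol. Groups, dose, time and batch came from the labels, and culture round and sex code from the library names within them. Of all libraries, 60 belong to batch 1, which was not used, and 21 whose labels conflict were left out, 20 of 400 µM with HbHpx in the treatment label but hemoglobin-haptoglobin in the title and 1 control with both 24 and 48 h in its labels. No library of this comparison was a duplicate of another.

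The 55 libraries (control, Hb and HbHp at 24 and 48 h, batches 2 and 3) were fitted together with edgeR 4.0.16 (quasi-likelihood, TMM scaling) in R 4.3.3, with group, batch and round as terms. Genes were kept by filterByExpr with a minimum count of 10 and a minimum total of 15, leaving 16221. An adjusted p is that of Benjamini and Hochberg over all genes tested, with a threshold of 0.05, and each SE was derived from the log2 change and its F value. Haptoglobin at 400 µM was compared within batch 3 and the second round. DESeq2 1.42.0 and other settings were run as alternatives.

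The members and gene lists were chosen with earlier results of these data known. Genes were named by a rule: 10 genes the study singles out, the 10 raised and 10 lowered most with a mean of at least 1 CPM, up to 4 list members of smallest p, and 5 in each direction for the other comparisons, of which 1 gene is not reported here. Gene positions, GC content and transcript lengths were taken from GENCODE M21 and promoters from RefSeq, both on GRCm38, and not from the build of the counts.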

Additional observations from a re-analysis of the deposited data

Results flagged for a closer look

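Of 140 groups of libraries tested, 15 held a library far from the others, where chance gives about 1 in 20. Control replicate 8 was the highest of its group by a wide gap in 8 of them. It held 17.03 CPM of Ccl7 (the next value was 11.3), 61.6 of Hp (28.8), 7.63 of Il6 (3.27), 11.96 of Il1rn (3.40) and 3.65 of Exoc3l (1.56). It also held summed marker levels of 719.2 CPM for endothelial and mural cells (422.6), 2190 for fibroblasts and meninges (1193) and 69.0 for the hypothalamus (31.5). The part of tissue makeup in the values of this library was not tested.

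Control replicate 11, the control that shares batch and round with the HbHp libraries, was lowest for Ireb2 at 65.6 CPM (next 89.5) and Gsta4 at 20.8 (29.03), and highest for Rab37 at 11.5 (8.24). G6pdx was highest in control replicate 6 at 178.5 CPM (163.8), below every HbHp library. Among the HbHp libraries, replicate 6 held the highest Slc40a1 at 64 CPM (52.2), replicate 7 the lowest Tkt at 285.2 (314.9) and replicate 3 the highest choroid plexus and ependymal markers at 1164 (482.3).

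The change with HbHp differed between 48 h and 24 h, by the interaction term, for 5 genes. The difference on the log2 scale was 2.09 for Il11, 1.88 for Ereg, 1.84 for Areg, 1.19 for Clec4n and 0.83 for Prdx1.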

How the results depend on the processing

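Over 56 genes and up to 34 alternatives each, 1535 values kept direction and side of the threshold, 333 lost the threshold, 25 passed it anew and 10 reversed. Of 45 named genes called, 24 kept the call whichever library was left out and 21 lost it without control replicate 11. The 199 calls against control became 322 with DESeq2 (252 raised, 70 lowered), 986 with neither batch nor round as a term, 318 with all labelled libraries of batches 2 and 3, 216 with the 18 libraries only (97 shared), 146 in batch 3 only (76 shared), 60 with 24 h libraries only (43 shared), 42 in the second round only (31 shared) and 45 to 305 with any library left out. As a replicate block the title numbers left 0 calls, and the library-name codes 76. The deviations of same-numbered libraries correlated with r from −0.23 to 0.26 over 8 pairs, against −0.47 to 0.33 over 69 other pairs. The numbers were therefore not taken to pair them. For the codes r ran from −0.13 to 0.39 over 3 pairs, too few to decide whether codes pair libraries. The 46 calls against free Hb became 161 with DESeq2, 10 without a filter on low counts, 378 without round (96 higher, 282 lower) and 100 with all those libraries. The 5 differences between times became 11 with DESeq2 and 2 with all those libraries, and the 55 against Hp 186 with DESeq2 (109 higher, 77 lower). The cause of these moves was not tested. Reversed values were Gpr84 at 0.071 without round and, with neither term, Gpr84 at 0.090, Syt15 at −0.0068, Tlr2 at 0.052, Ireb2 at −0.064 and Hp at 0.050. Cd163 was −0.028 without round, −0.035 with the 18 libraries only and −0.27 with the title-number block, and ran from −0.0028 (without HbHp replicate 7) to 0.18 with a library left out. Only 1 control shares batch and round with the HbHp libraries, which limits every fold change against control.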

Other observations

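Several genes of the heme, iron and antioxidant lists that missed the test at 24 h passed at 48 h with the same direction. The 48 h groups share no library with the 24 h groups but were fitted with them, and their HbHp libraries carry the same name codes. They were named after their values had been seen. Hmox1 changed by 0.75 at 24 h and by 0.96 at 48 h (adjusted p = 0.0075), and Fth1, ferritin heavy chain, by 0.27 and 0.78 (adjusted p = 2.9e-05). Ncoa4, the receptor that takes ferritin to the lysosome, changed by 0.04 and 0.29, and mouse Hp by −0.78 and −0.90 (adjusted p = 0.013). Gss, glutathione synthetase, changed by 0.21 and 0.45, Txn1, thioredoxin, by 0.23 and 0.41, and Taldo1, of the pentose phosphate pathway, by 0.20 and 0.56. None of these was among the 5 genes whose change differed between the times.

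Some genes of other lists were called at 48 h only, and these too were named after their values had been seen. Over all genes 3.7% were raised and 1.37% lowered at 48 h. Of the 18 p53 targets tested 5 were raised at 48 h and none was lowered. Mdm2, Ccng1, Eda2r and Aen were raised at 48 h by 0.35, 0.37, 0.78 and 0.31, beside Trp53inp1 at both times. Of the 20 chaperones of the endoplasmic reticulum 3 were lowered and none was raised. These were Hspa5, Calr and Creld2, lowered by 0.26, 0.30 and 0.19 on the log2 scale. Cyp1a1, a target of the aryl hydrocarbon receptor, changed by 2.75 at 48 h and by 0.98 at 24 h, where it was not called. The difference between the times was not past the threshold for any of them.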
